A study of Mus musculus with 12 samples.

Results

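The genes described are the EGF receptor family and its ligands in mouse periocular skin: the 7 ligands *Egf*, *Tgfa*, *Areg*, *Ereg*, *Hbegf*, *Btc* and *Epgn* and the 3 receptors *Egfr*, *Erbb2* and *Erbb3*. They were taken by gene symbol from the count table, where all 10 of the 10 names were found among 21247 listed genes. RNA-seq was done on whole biopsies of skin around the eye, with 4 libraries labelled ft/ft and 4 labelled ft/ftMyD88-/-, all from BALB/c mice given as female and 6 weeks old. Mice of both groups carried the spontaneous loss-of-function point mutation of filaggrin (*Flg*), a structural protein of the cornified layer, without the ma mutation of *Tmem79*. Those labelled ft/ftMyD88-/- were in addition deficient in MyD88, the adaptor of toll-like and IL-1 family receptors, from an in-house cross. No Cre or tissue-restricted promoter is named for either allele, neither group was treated, and wild-type libraries were not analysed here.

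The ligands of this family are made as membrane-anchored precursors, and proteases of the ADAM family cut them free. EGF, TGF-alpha, amphiregulin (*Areg*) and epigen (*Epgn*) bind the EGF receptor (*Egfr*), while HB-EGF (*Hbegf*), betacellulin (*Btc*) and epiregulin (*Ereg*) can also bind ErbB4. ErbB2 (*Erbb2*) has no ligand of its own and pairs with the other receptors, and ErbB3 (*Erbb3*), which has little kinase activity, binds neuregulins. In skin, signalling through the EGF receptor is known for its part in keratinocyte proliferation and migration, in wound repair and in the shape and cycling of hair follicles. Sprouty proteins and the phosphatase DUSP6 act as feedback brakes further down, on the RAS and ERK pathway.

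The labels were first checked against the counts. *Myd88* was at 25.4 to 36.5 CPM (counts per 1e+06 counts of the library, scaled by edgeR's TMM factors) in the libraries labelled ft/ft and at 32.2 to 48.8 CPM in those labelled ft/ftMyD88-/-. It was thus higher, not lower, in the latter (log2 fold change 0.42, adjusted p 0.0484 by edgeR's quasi-likelihood test), with overlapping ranges. The groups rest on the labels alone. The deleted part of *Myd88* is not given in the labels, and reads from outside it would still be counted. The female transcript *Xist* had 0 or 1 counts per library labelled ft/ft and 567 to 1964 in those labelled ft/ftMyD88-/-, and the Y-linked *Ddx3y* had 1095 to 1864 and 0 to 11. Sex and genotype therefore cannot be told apart in any difference below. Keratinocyte genes were abundant, with *Krt5*, *Krt14*, *Krt1* and *Krt10* at group means of 3131 to 7586 CPM. Skeletal muscle genes were also present, and the 5 markers summed to 7068 to 9537 CPM in libraries labelled ft/ft and 2748 to 5103 in those labelled ft/ftMyD88-/-. Total counts ran from 15802957 to 29255129 per library. Separate mice are implied by the numbered replicates but not stated for each, so p-values measure the spread between these libraries.

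Of the 7 ligands 5 changed, and none of the 3 receptors passed the test (0 also at an unadjusted p under 0.05 and 0 by DESeq2 and by limma). With edgeR's quasi-likelihood test over 20454 genes and an adjusted p under 0.05, *Epgn*, *Areg* and *Hbegf* were higher and *Btc* and *Egf* lower in the libraries labelled ft/ftMyD88-/-. *Tgfa*, *Ereg*, *Egfr*, *Erbb2* and *Erbb3* were not called. The 5 of 10 genes called compare with 23.3% of all genes tested, the 3 called higher with 10.9% and the 2 called lower with 12.3%. The median log2 ratio (the log2 fold change, ft/ftMyD88-/- over ft/ft) was 0.03 over the 10 genes and 0.01 over all genes tested. In 4 of the 10 genes the groups did not overlap, 2 higher and 2 lower, where 26.7% of all genes tested had no overlap (12.5% higher and 14.2% lower). The 5 calls were not equally firm: *Epgn*, *Areg* and *Btc* kept their calls in all 16 alternative fits, *Hbegf* in 11 and *Egf* in 8. With the replicate numbers as a block the same numbers of the 10 genes were called in each direction, where 19.7% of all genes were called, 9.26% higher and 10.5% lower.

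**Figure D1:**
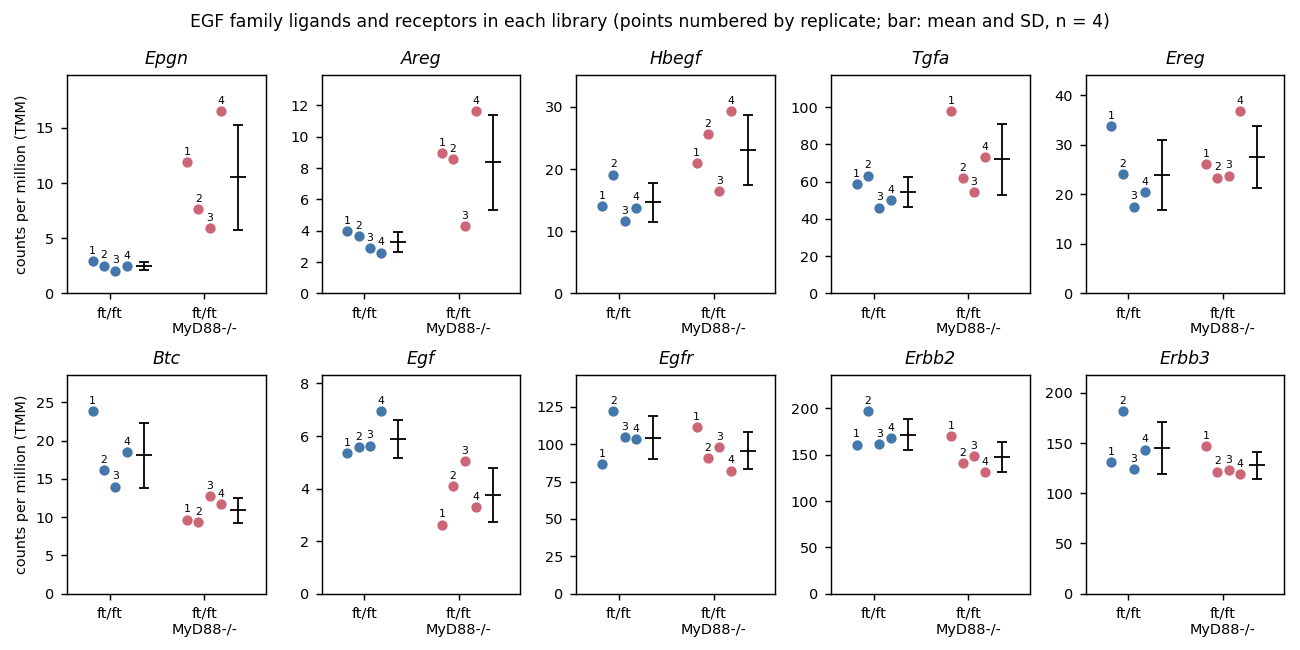
TMM-scaled CPM (vertical axes, each starting at 0) of each of the 10 genes in the 4 libraries labelled ft/ft (blue) and the 4 labelled ft/ftMyD88-/- (red), numbered by replicate, with the mean and SD of each group in black. *Epgn* and *Areg* of every red library lie above every blue one, *Btc* and *Egf* lie below, and the 3 receptors overlap.

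RefSeq promoter windows of 7 of the 10 genes were searched, and those of *Hbegf*, *Ereg* and *Erbb3* are not reported here. The 250 bases before the start of 3 neighbouring ligand genes of chromosome 5 are printed. They were picked because *Areg* and *Epgn* rose together and *Btc*, from the same stretch, fell. Strands are those of the genes, the build is GRCm38.p6, and capitals mark matches, on either strand, to the cAMP response element TGACGTCA, to the TATA box as TATAAA or to the CCAAT box. The windows are chr5:91139349-91139598 on the plus strand for *Areg*, chr5:91027267-91027516 on the plus strand for *Epgn* and chr5:91402995-91403244 on the minus strand for *Btc*.
Areg: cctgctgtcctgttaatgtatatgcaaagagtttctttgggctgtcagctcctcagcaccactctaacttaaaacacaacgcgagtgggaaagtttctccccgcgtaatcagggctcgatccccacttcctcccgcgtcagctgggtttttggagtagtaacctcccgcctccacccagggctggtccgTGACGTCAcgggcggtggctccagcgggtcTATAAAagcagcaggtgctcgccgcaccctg
Epgn: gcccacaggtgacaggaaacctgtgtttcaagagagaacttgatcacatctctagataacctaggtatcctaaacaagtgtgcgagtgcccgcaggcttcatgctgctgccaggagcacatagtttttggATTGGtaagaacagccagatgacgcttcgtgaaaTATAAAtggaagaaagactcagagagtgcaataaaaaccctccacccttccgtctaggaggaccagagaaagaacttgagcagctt
Btc: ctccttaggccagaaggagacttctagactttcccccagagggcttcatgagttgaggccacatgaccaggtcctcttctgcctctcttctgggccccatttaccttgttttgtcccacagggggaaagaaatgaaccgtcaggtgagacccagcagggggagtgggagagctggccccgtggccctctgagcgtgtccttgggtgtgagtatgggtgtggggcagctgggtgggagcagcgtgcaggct

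The *Areg* window held TGACGTCA at 61 to 54 bases before the start and TATAAA at 31 to 26 bases before it. The *Epgn* window held TATAAA at 86 to 81 bases before the start and CCAAT, on the other strand, at 120 to 116. Of 32851 promoter windows of this length, 1.546% held TGACGTCA, 12.37% TATAAA and 33.85% CCAAT. Neither TGANTCA (the AP-1 site, in 6.749% of windows) nor CACGTG (the E-box, in 6.021%) was found in any of the 7 genes' windows, and the *Btc* window held none of the 5 sequences searched. No 2 of the matches overlapped. These are matches of letters only.

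*Epgn* (GRCm38.p6 chromosome 5, 91027517 to 91035212) encodes epigen, a ligand of the EGF receptor made by epithelia. It was at 2.91, 2.51, 2.06 and 2.45 CPM in replicates 1 to 4 labelled ft/ft and at 11.9, 7.64, 5.92 and 16.5 CPM in those labelled ft/ftMyD88-/-. The 4 libraries labelled ft/ft lay close together, and the lowest of the others was above all of them. The means were 2.49 ± 0.348 and 10.5 ± 4.74 CPM (SD, n = 4 each), a log2 ratio of 2.06 (standard error, SE, 0.298, adjusted p 0.00102 by edgeR) or 4.17-fold. It was the largest change of the 10 genes. With each library left out in turn the log2 ratio stayed between 1.77 and 2.27.

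*Areg* (chromosome 5, 91139599 to 91148432) encodes amphiregulin, a growth factor of keratinocytes that immune cells also make. It was at 3.99, 3.64, 2.90 and 2.61 CPM in the libraries labelled ft/ft and at 8.94, 8.60, 4.29 and 11.6 CPM in those labelled ft/ftMyD88-/-. The groups did not overlap, but replicate 3 labelled ft/ftMyD88-/- was only just above the highest library labelled ft/ft. The mean rose from 3.28 ± 0.638 to 8.37 ± 3.04 CPM (SD, n = 4 each), a log2 ratio of 1.34 (SE 0.27, adjusted p 0.00499 by edgeR) or 2.53-fold. Leaving out each library gave 1.15 to 1.57.

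*Hbegf* encodes heparin-binding EGF-like growth factor, which binds heparan sulphate and is induced in wounded epidermis. Its libraries labelled ft/ft were at 14.0, 19.1, 11.6 and 13.8 CPM and those labelled ft/ftMyD88-/- at 20.9, 25.6, 16.5 and 29.3 CPM. Replicate 2 labelled ft/ft was above replicate 3 labelled ft/ftMyD88-/-, so the groups overlapped. The means were 14.6 ± 3.17 and 23.1 ± 5.60 CPM, a log2 ratio of 0.65 (SE 0.191, adjusted p 0.0297 by edgeR) or 1.57-fold. The call was lost without ft/ft replicate 1, 3 or 4 (adjusted p by edgeR 0.0755, 0.0764 and 0.079) and without ft/ftMyD88-/- replicate 2 or 4 (0.0715 and 0.0818).

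*Btc* (chromosome 5, 91357261 to 91402994) encodes betacellulin, a ligand of the EGF receptor and of ErbB4. It stood at 23.8, 16.1, 14.0 and 18.5 CPM in the libraries labelled ft/ft and at 9.68, 9.37, 12.8 and 11.7 CPM in those labelled ft/ftMyD88-/-. Every library of the latter was below every one of the former. The mean went from 18.1 ± 4.23 to 10.9 ± 1.64 CPM, a log2 ratio of -0.74 (SE 0.167, adjusted p 0.00812 by edgeR), or 1.66-fold lower. Leaving out each library gave -0.84 to -0.57.

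*Egf* (chromosome 3, 129677574 to 129755322), the ligand that gives the family its name, is made in quantity by salivary glands and kidney. It was at 5.36, 5.56, 5.63 and 6.94 CPM in the libraries labelled ft/ft and at 2.63, 4.08, 5.04 and 3.29 CPM in those labelled ft/ftMyD88-/-. The groups did not overlap, but the gap between them, from 5.04 to 5.36 CPM, was narrow. The means were 5.87 ± 0.72 and 3.76 ± 1.04 CPM, a log2 ratio of -0.63 (SE 0.199, adjusted p 0.0374 by edgeR). The call was lost in 7 of the 8 fits that left out a library, those without any of the 4 ft/ft replicates (adjusted p by edgeR 0.0516, 0.0559, 0.0662 and 0.112) and without ft/ftMyD88-/- replicate 1, 2 or 4 (0.0795, 0.0564 and 0.0978), and with library size alone in place of TMM (0.12). Of 7 marker genes fixed for lacrimal and salivary gland only 2 were in the table, with *Lacrt* among the 5 not analysed here. The 2 summed to 74.4 to 92.3 CPM in ft/ft and 35.1 to 62.7 CPM in ft/ftMyD88-/-. Nearly all of that sum was *Aqp5*, at group means of 82.2 and 50.1 CPM. The other marker, *Bhlha15*, was at 0.623 and 0.759 CPM and was not called (log2 ratio 0.28, adjusted p 0.676 by edgeR). Within the libraries labelled ft/ftMyD88-/-, *Egf* and the summed skeletal muscle markers had the same order, from 2748 CPM of the markers in replicate 1 through 3775 and 4111 in replicates 4 and 2 to 5103 in replicate 3. Among the libraries labelled ft/ft the orders differed in replicates 1 and 2, with *Egf* at 5.36 and 5.56 CPM and the muscle markers at 7148 and 7068 CPM. The part of muscle or gland tissue in the difference of *Egf* was not tested.

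*Tgfa* (chromosome 6, 86195038 to 86275744) encodes TGF-alpha, the ligand whose loss gives mice wavy hair and whiskers. It was at 58.9, 63.2, 46.0 and 50.0 CPM in the libraries labelled ft/ft and at 97.9, 62.1, 54.5 and 73.2 CPM in those labelled ft/ftMyD88-/-. The groups overlapped, and replicate 1 labelled ft/ftMyD88-/- was the highest. The log2 ratio was 0.40 (SE 0.173, adjusted p 0.123 by edgeR), with a 95% interval of 0.01 to 0.78. It reached 0.53 (adjusted p by edgeR 0.0339) without ft/ftMyD88-/- replicate 3 and 0.22 (0.259) without replicate 1 of that group, and it was 0.57 (0.0247) with library size alone in place of TMM.

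*Ereg* (chromosome 5, 91074617 to 91093649) encodes epiregulin. It was found at 33.8, 24.1, 17.5 and 20.4 CPM in the libraries labelled ft/ft and at 26.1, 23.4, 23.8 and 36.8 CPM in ft/ftMyD88-/-. The highest library of each group stood apart from the other 3, and the groups overlapped throughout. The log2 ratio was 0.19 (SE 0.212, adjusted p 0.55 by edgeR), and the 95% interval of -0.28 to 0.67 leaves room for a change in either direction.

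**Figure D2:**
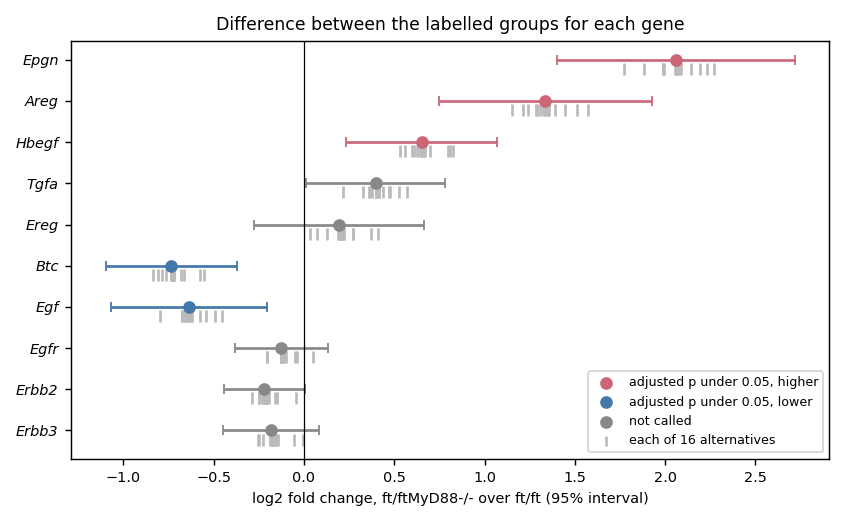
Log2 fold change of each of the 10 genes, ft/ftMyD88-/- over ft/ft, with its 95% interval from edgeR's fit, coloured by call, and, as grey ticks below, the value under each of the 16 alternative settings. *Epgn* (2.06) and *Areg* (1.34) lie farthest to the right, *Btc* (-0.74) and *Egf* (-0.63) to the left, and only *Egfr* has a tick on the other side of 0 from its own value.

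In the 8 libraries, replicate 3 was the lowest of those labelled ft/ftMyD88-/- for *Epgn*, *Areg*, *Hbegf* and *Tgfa* and the highest for *Btc* and *Egf*, so in 6 of the 7 ligands it lay nearest to the ft/ft libraries. The same library had the lowest summed stress keratins (*Krt6a*, *Krt6b*, *Krt16* and *Krt17*) of its group, at 3208 CPM against 3928 to 5403 in the other 3, and the lowest summed neutrophil markers, at 399 CPM against 493 to 958. Replicate 4, which was highest for *Epgn*, *Areg*, *Hbegf* and *Ereg*, had the highest of both sums. By group means *Krt17* made up most of the keratin sum, and *S100a8* and *S100a9* most of the neutrophil sum. *Krt16* alone was lowest in replicate 1 of this group, at 357 CPM against 370 in replicate 3. The summed T cell and macrophage markers were also lowest in replicate 1, at 22.4 and 342 CPM, against 28.4 and 414 in replicate 3. Any link of these sums with the ligands was not tested. Without replicate 3 the log2 ratios of *Epgn* and *Areg* were 2.27 and 1.57. Among the libraries labelled ft/ft, replicate 2 had raised *Krt16* (253 CPM against 46.9 to 67.2 in the other 3) and *S100a8* (88.4 against 1.53 to 8.96), and it was the highest of its group for *Hbegf*, *Tgfa* and the 3 receptors but not for *Epgn* or *Areg*. Without it, the log2 ratio was 0.81 for *Hbegf*, 2.06 for *Epgn* and 1.39 for *Areg*.

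*Egfr* (chromosome 11, 16752203 to 16913907), the receptor of all 7 ligands, was at 86.8, 122, 105 and 103 CPM in the libraries labelled ft/ft and at 111, 90.6, 98.0 and 82.3 CPM in those labelled ft/ftMyD88-/-. The ranges overlapped almost fully. Its log2 ratio was -0.13 (SE 0.118, adjusted p 0.482 by edgeR), with a 95% interval of -0.38 to 0.13, and it was 0.05 with library size alone in place of TMM.

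*Erbb2* (chromosome 11, 98412484 to 98437716), the partner receptor, was at 161, 197, 162 and 167 CPM in ft/ft and at 170, 141, 149 and 131 CPM in ft/ftMyD88-/-. All but 1 of the latter libraries were below the former, and replicate 1 lay within them. The log2 ratio was -0.22 (SE 0.103, adjusted p 0.142 by edgeR), with a 95% interval of -0.44 to 0.0035.

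*Erbb3* (chromosome 10, 128567523 to 128589635), the neuregulin receptor, was at 131, 182, 124 and 144 CPM in ft/ft and at 147, 122, 123 and 119 CPM in ft/ftMyD88-/-. Its log2 ratio was -0.18 (SE 0.123, adjusted p 0.307 by edgeR), with a 95% interval of -0.45 to 0.08. Its groups overlapped, and replicate 2 of ft/ft was the highest of the 8 libraries. None of the 3 receptors' intervals reached below -0.45.

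Levels of different genes were compared as CPM per kb of annotated exon. This holds only if reads came from whole transcripts, as in the bulk libraries of the study's methods, and not for the fixed-tissue Cell Ranger protocol that the sample labels name, whose counts do not scale with length. In the libraries labelled ft/ft the order ran from *Erbb2* (33.0 ± 3.26 CPM per kb, SD, n = 4) and *Erbb3* (24.1 ± 4.27) through *Egfr* (9.21 ± 1.27), *Tgfa* (8.40 ± 1.22), *Ereg* (5.80 ± 1.72), *Btc* (4.01 ± 0.937), *Hbegf* (3.03 ± 0.656), *Areg* (2.70 ± 0.525) and *Epgn* (1.38 ± 0.193) to *Egf* (0.521 ± 0.0639). The ranges over the 4 libraries overlapped between neighbours from *Egfr* to *Areg*, and did not between *Erbb2* and *Erbb3*, *Erbb3* and *Egfr*, *Areg* and *Epgn* or *Epgn* and *Egf*. In the libraries labelled ft/ftMyD88-/- *Erbb2* (28.3 ± 3.15) and *Erbb3* (21.2 ± 2.19) again led and *Egf* (0.333 ± 0.092) was again last. Between them stood *Tgfa* (11.1 ± 2.92), *Egfr* (8.44 ± 1.09), *Areg* (6.89 ± 2.50), *Ereg* (6.67 ± 1.53), *Epgn* (5.81 ± 2.62), *Hbegf* (4.78 ± 1.16) and *Btc* (2.41 ± 0.362), whose ranges overlapped between neighbours except *Hbegf* and *Btc*. *Btc* thus went from the third of the ligands by mean level to the sixth, and *Areg* from the fifth to the second.

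Shares within a library do not depend on how libraries are scaled, so the mix of ligands was described that way. The shares do depend on the exon lengths, and so on the same condition as the levels per kb. Of the 7 ligands' summed CPM per kb, *Epgn* made up 4.97 to 5.73% in the libraries labelled ft/ft and 11.8 to 19.1% in those labelled ft/ftMyD88-/-. *Areg* made up 9.05 to 11.4% and 12.8 to 20.6%. *Btc* made up 12.7 to 17.2% and 5.09 to 10.2%, so for each of these 3 genes the groups did not overlap in share either.

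*Hbegf*, by contrast, held a like share in both groups, at 9.41 to 14.1% and 10.3 to 15.5%, and so did *Tgfa*, the most abundant ligand, at 29.4 to 34.8% and 23.5 to 35.9%. *Ereg* was at 20.3 to 26.6% in ft/ft and 15.02 to 20.8% in ft/ftMyD88-/-, and *Egf* at 1.54 to 2.60% and 0.554 to 1.62%, both with overlap. Together *Epgn* and *Areg* took 14.8 to 16.9% of the ligand sum in ft/ft and 24.6 to 39.1% in ft/ftMyD88-/-. The sum itself was 20.9 to 30.8 and 27.7 to 47.9 CPM per kb. The receptors kept their mix, with *Erbb2* at 48.0 to 51.2% of the 3 receptors' sum in ft/ft and 48.2 to 49.5% in ft/ftMyD88-/-, *Erbb3* at 33.8 to 38.3% and 35.6 to 37.8%, and *Egfr* at 12.7 to 15.2% and 13.9 to 14.997%.

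**Figure D3:**
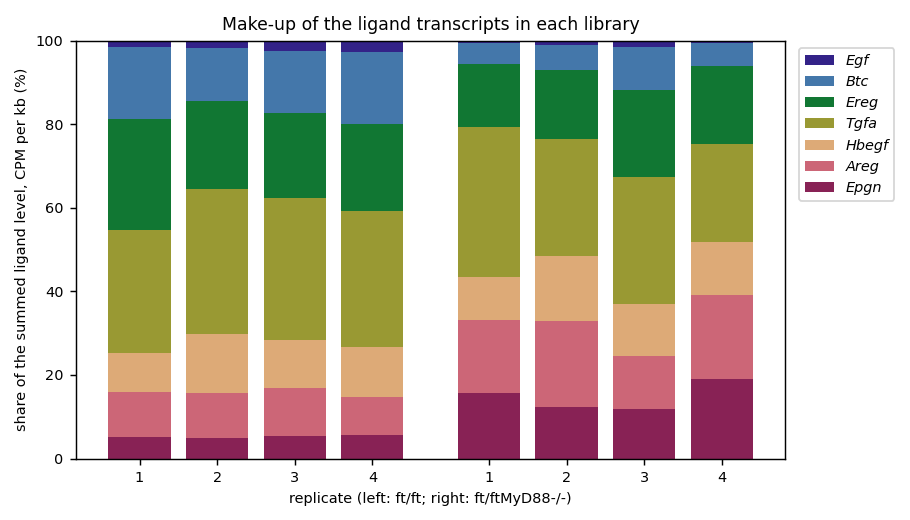
Stacked bars give the share (%) of each ligand in the summed level of the 7 ligands, in CPM per kb of exon, in each library, with ft/ft replicates on the left and ft/ftMyD88-/- replicates on the right. The 2 lowest segments, *Epgn* and *Areg*, together reach 14.8 to 16.9% on the left and 24.6 to 39.1% on the right.

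*Epgn*, *Ereg*, *Areg* and *Btc* are the 4 protein-coding genes of a stretch of 375 kb of chromosome 5. RefSeq lists 7 genes there, and the other 3 are non-coding and were not tested. The 4 neighbours differed in direction, with *Epgn* and *Areg* called higher, *Ereg* between them not called and *Btc*, the most distant, called lower. *Ereg* shares 141 exon bases with a non-coding gene on the opposite strand, *Tgfa* 118 and *Egf* up to 607, and since the library kit named in the study's methods does not mark strand, reads from those bases cannot be told apart.

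**Figure D4:**
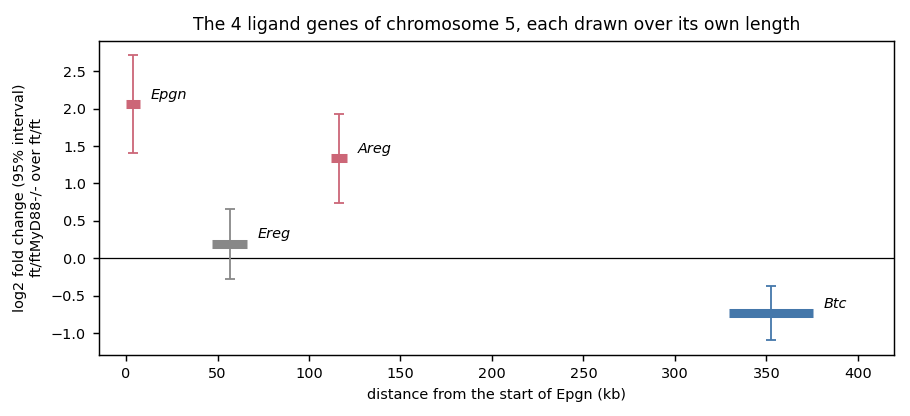
Log2 fold change (ft/ftMyD88-/- over ft/ft, 95% interval) of the 4 ligand genes of chromosome 5 against distance in kb from the start of *Epgn*, each drawn over its own length and coloured red if called higher, blue if called lower and grey if not called. *Epgn* and *Areg* stand above 0 with *Ereg* between them near 0.19, and *Btc* stands below 0 at the far end.

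Further genes of the pathway were grouped by role: 5 other family genes, 8 sheddases and their regulators, 19 negative regulators, 23 signal transducers and 9 response genes. Of 64 listed, 63 were tested, and 11 (17.5%) were higher, 7 (11.1%) lower and 45 not called in the libraries labelled ft/ftMyD88-/-, against 10.9% and 12.3% of all genes tested. Their median log2 ratio was 0.04. These counts depended on scaling, since library size alone in place of TMM gave 25 higher and 2 lower, where 22.7% of all genes were then higher, 6.48% lower and 29.2% called in all. That scaling moved the median of all genes from 0.01 to 0.19 and the share of calls that were higher from 47.0% to 77.8%. For the counts by other tools given below, DESeq2 called 2865 genes higher and 2777 lower of 18865 tested. Limma called 2193 higher and 2490 lower of 20454. Counts at an unadjusted p under 0.05 are given without the share over all genes.

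Among the other family genes tested, 3 of 4 were higher and 1 lower. *Nrg1* encodes neuregulin 1, a ligand of ErbB3 and ErbB4, and was at 1.24, 1.64, 1.23 and 1.23 CPM in ft/ft and at 5.74, 7.28, 3.57 and 6.77 CPM in ft/ftMyD88-/-. Its groups were well apart, with a log2 ratio of 2.11 (SE 0.239, adjusted p 1.67e-04 by edgeR), and here too replicate 3 was the lowest of its group. *Nrg4* and *Nrg2* were higher by 0.84 (SE 0.15, adjusted p 0.00223 by edgeR) and 0.63 (SE 0.186, adjusted p 0.029 by edgeR) on the log2 scale. *Erbb4*, the receptor shared by neuregulins and several EGF family ligands, was low in all libraries, with raw counts of 23, 43, 34 and 45 in the ft/ft group against 14, 10, 16 and 7 in the ft/ftMyD88-/- group. Scaled for depth its groups did not overlap, at 0.986 to 1.90 and 0.367 to 0.613 CPM, and it fell by 1.64 on the log2 scale (SE 0.293, adjusted p 0.00224 by edgeR).

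Of the 8 genes that release or restrain ligands, 3 were higher and 1 lower. By DESeq2 4 were higher and 1 lower. The principal sheddases were not called by edgeR although the groups did not overlap in either, with *Adam17* at 124 CPM in the ft/ft group and at 111 CPM in the ft/ftMyD88-/- group (log2 ratio -0.16, SE 0.0778, adjusted p 0.147 by edgeR) and *Adam10* at 122 and 135 (0.15, SE 0.072, adjusted p 0.157 by edgeR). The metalloproteases *Adam8* (log2 ratio 1.03), *Adam12* (0.92) and *Adam9* (0.33) were higher, with edgeR adjusted p of 0.0241, 0.00118 and 0.018. *Timp3*, an inhibitor of ADAM proteases, was lower, at 169 to 256 CPM in the ft/ft group and at 126 to 174 CPM in the ft/ftMyD88-/- group (log2 ratio -0.47, SE 0.135, adjusted p 0.0255 by edgeR).

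Among 19 negative regulators 3 were higher and 1 lower. *Dusp6*, the ERK phosphatase induced by ERK itself, was at 41.3, 34.9, 38.4 and 35.04 CPM in ft/ft and at 85.1, 59.9, 63.4 and 79.8 CPM in ft/ftMyD88-/-. That was a clear separation, with a log2 ratio of 0.95 (SE 0.119, adjusted p 3.06e-04 by edgeR). *Spry4* was higher by 0.61 (adjusted p by edgeR 0.0293) and *Rnf41*, an E3 ligase for ErbB3, by 0.38 (0.0251), while *Spry2* fell by 0.30 on the log2 scale (adjusted p by edgeR 0.0465). The receptor inhibitors *Errfi1* (log2 ratio -0.13, adjusted p by edgeR 0.52) and *Lrig1* (0.18, adjusted p by edgeR 0.184) were not called.

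None of the 23 signal transducers was called higher by edgeR (0 also at an unadjusted p under 0.05 and by DESeq2 and limma), and 4 were called lower (8 at an unadjusted p under 0.05, 6 by DESeq2 and 5 by limma), with *Mapk3*, which encodes the kinase ERK1, at the front. *Mapk3* was at 255 to 275 CPM in the ft/ft group and at 187 to 196 CPM in the ft/ftMyD88-/- group (log2 ratio -0.47, SE 0.0761, adjusted p 0.00128 by edgeR). *Akt2* fell by 0.34 (adjusted p by edgeR 0.0108) and the adaptor *Gab1* by 0.31 (adjusted p by edgeR 0.0309) on the log2 scale. Of the 9 response genes, which growth factors induce in many cells, 2 were higher and none lower by edgeR (4 higher and 0 lower at an unadjusted p under 0.05, 3 and 0 by DESeq2, 2 and 0 by limma). *Fosl1*, an AP-1 subunit, was at 0.892 to 2.29 and 3.57 to 5.49 CPM (log2 ratio 1.40, SE 0.257, adjusted p 0.00265 by edgeR), and *Egr1* at 56.5 to 68.0 and 74.3 to 139 CPM (log2 ratio 0.85, SE 0.184, adjusted p 0.00836 by edgeR). *Fos* had a log2 ratio of 1.08 and was not called (SE 0.489, adjusted p 0.163 by edgeR), nor was *Myc* (0.19, adjusted p by edgeR 0.223).

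**Figure D5:**
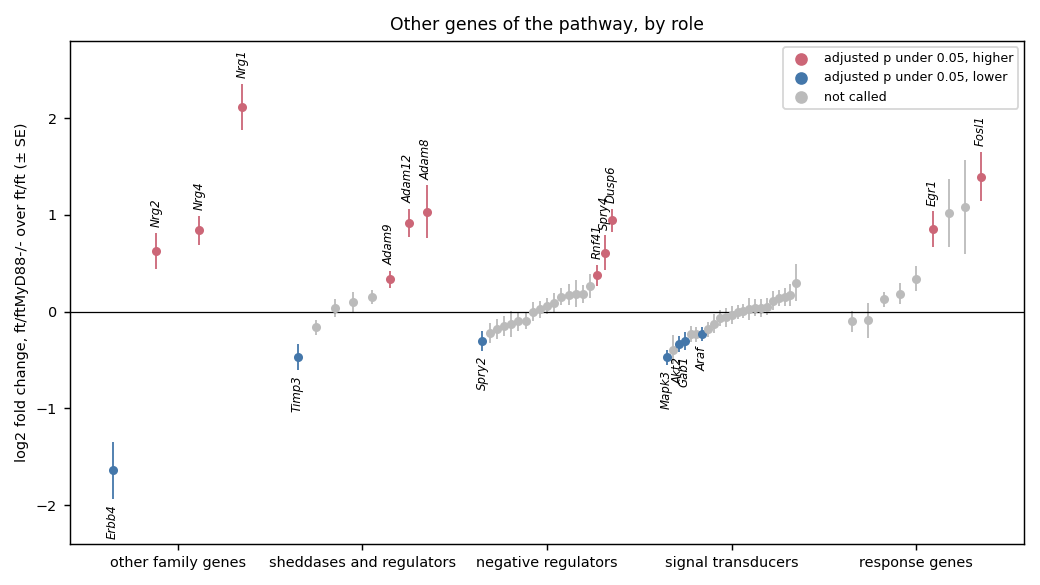
Log2 fold change (ft/ftMyD88-/- over ft/ft, ± standard error) of 63 other genes of the pathway in 5 groups by role, with called genes coloured and named. *Nrg1* (2.11) is the highest and *Erbb4* (-1.64) the lowest, and the 23 signal transducers lie between -0.47 and 0.30.

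Markers of several cell types moved between the same groups, and their part in the values above was not tested. In a bulk biopsy, fewer cells of a type and less RNA per cell cannot be told apart. Basal keratinocyte markers were lower in 5 of 7 genes (*Krt5*, *Krt15*, *Itga6*, *Itgb4* and *Col17a1*). They summed to 14024 to 17175 CPM in the ft/ft group and to 9837 to 12059 CPM in the ft/ftMyD88-/- group. The other basal markers were not called, *Krt14* at group means of 4717 and 4881 CPM (log2 ratio 0.05) and *Trp63* at a log2 ratio of -0.18. Suprabasal markers were lower in 3 of 6 (16308 to 21286 and 11734 to 14611 CPM), fibroblast markers, the collagens *Col1a1*, *Col1a2* and *Col3a1*, in 3 of 6 (14018 to 29056 and 6962 to 10330 CPM) and sebocyte markers in 4 of 7 (5929 to 7017 and 4996 to 6242 CPM). The collagens made up most of the fibroblast sum. The other fibroblast markers, *Dcn*, *Pdgfra* and *Lum*, were not called, at log2 ratios of -0.40, 0.31 and 0.09. The 5 skeletal muscle markers were all lower. Of the gland markers *Aqp5* was lower and *Bhlha15* was not called. Proliferation markers were higher in 6 of 6 (234 to 301 and 386 to 503 CPM), T cell markers in 6 of 6 (13.4 to 17.96 and 22.4 to 31.2 CPM), and hair follicle growth markers in 3 of 6 (83.8 to 154 and 142 to 1005 CPM). By DESeq2 5 of those follicle markers were higher and by limma 4. The 4 neutrophil markers tested, of 6 listed, summed to 21.5 to 250.03 and 399 to 958 CPM. In the ft/ftMyD88-/- group *S100a8* and *S100a9* made up most of that sum. Of the 4 markers *Csf3r* was higher by edgeR (1.59 to 6.15 and 5.95 to 14.1 CPM), and 3 were higher at an unadjusted p under 0.05, by DESeq2 and by limma. The 6 macrophage markers summed to 293 to 425 and 342 to 508 CPM, and of these only *C1qa* was called, as higher (54.9 to 78.1 and 77.3 to 115 CPM). *Adgre1*, *Csf1r* and *Cd68* were not called, at log2 ratios of -0.03, -0.21 and -0.11. Nor were *Mrc1* and *C1qb*, at 0.27 and 0.24. None of the 4 stress keratins was called by edgeR, against 2 higher at an unadjusted p under 0.05, 2 by DESeq2 and 1 by limma, with *Krt16* at a log2 ratio of 2.58 and an edgeR adjusted p of 0.053. No marker in the table was at 0 in every library.

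By the smallest root mean square difference of centred log2 CPM over the 8 libraries, among 13507 genes with a mean of at least 50 counts, the genes most like *Epgn* were *Galnt6* (0.244), *Tubb3* (0.257) and *Arc* (0.269). These rose by 2.06, 1.87 and 1.93 on the log2 scale. The genes most like *Erbb2* were *Son* (0.0428), *Gsk3b* (0.0439) and *Atp11a* (0.0495), none of which was called. Since all these genes were picked by likeness over the same libraries, changes close to those of *Epgn* and *Erbb2* follow from the choice.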

How the data were processed

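Samples were grouped by their titles into ft/ft (4) and ft/ftMyD88-/- (4), each an RNA-seq library of skin around the eye. The 4 WT samples were not analysed here. The table deposited by the authors holds raw counts for each gene, from HTSeq (default parameters) after alignment by HISAT and TopHat2 to the mouse genome build GRCm38.p6. HTSeq's default counts by strand, and the kit named in the paper does not mark it. Aligner versions are not given in the sources used here. The labels of these 8 samples name Cell Ranger and a fixed-tissue protocol, the paper polyA-selected bulk libraries.

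A summed count of at least 10 was required of a gene. The test was that of edgeR 4.0.16 under R 4.3.3 (TMM, glmQLFit with robust = TRUE, glmQLFTest, no covariate, two-sided), adjusted by Benjamini-Hochberg over all genes tested. The fit was tested on simulated data. Standard errors come from the log2 ratio and F value, and intervals from the test's degrees of freedom. CPM are scaled by TMM. Exon lengths are unions of GENCODE M21 exons (GRCm38), which may differ from the annotation counted. Positions and promoters are RefSeq's. Alternatives used DESeq2 1.42.0, limma 3.58.1 voom, other scalings, filters and sample sets. Replicates of a group differed by at least 16.3 chi-square per degree of freedom, so none was a duplicate. The genes and lists were chosen with earlier results of these data known. Named are all 10 members, *Erbb4*, *Nrg1*, up to 3 higher and 3 lower called genes per pathway list with a mean of at least 50 counts, fixed markers and the 3 most similar profiles. *Adam10*, *Adam17*, *Errfi1*, *Lrig1*, *Fos* and *Myc* were named after their values were seen. A response gene of the original list is not reported here, and the list's counts leave it out.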

Additional observations from a re-analysis of the deposited data

Results flagged for a closer look

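*Erbb3* in replicate 1 labelled ft/ftMyD88-/- was at 147 CPM, far from the 119 to 123 CPM of the other 3 libraries of its group by Dixon's test for a value apart. The 10 genes gave 20 such groups of 4 libraries, and chance flags about 1 in 20.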

How the results depend on the processing

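Of the 5 calls, those of *Epgn*, *Areg* and *Btc* held in all 16 alternatives, and no called gene changed direction. *Egfr*, which was not called, changed sign with library size alone (log2 ratio 0.0516). With that scaling 4 of the 10 genes were called higher (22.7% of all genes) and 1 lower (6.48%), *Tgfa* being gained and *Egf* lost, and 25 pathway genes were higher and 2 lower. With each library left out in turn, 3 to 6 of the 10 genes were called, 2 to 4 higher and 1 to 2 lower. The pathway genes then numbered 7 to 12 higher and 3 to 6 lower, and calls over all genes 3344 to 4668. Of the 10 genes, 3 were called without ft/ft replicate 1, 3 or 4 or without ft/ftMyD88-/- replicate 2 or 4. Each of those fits had 1 library fewer, and other causes were not tested.

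Replicate numbers are shared by the groups but did not pair the libraries, with correlations of deviations from the group means between same-numbered libraries of -0.146, 0.0251, 0.0146 and -0.0169, and not every library correlated best with its own number. In the fit with the replicate block, 5 of the 10 genes were called, 3 higher and 2 lower, as were 11 pathway genes higher and 4 lower. *Epgn*, *Areg* and *Egf* had few counts, from 37 to 272 per library, so counting error adds to their spread.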
